A study of Mus musculus with 12 samples.

Results

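The BCL2 family decides whether a stressed cell keeps its mitochondria intact or enters apoptosis, and 10 of its genes were followed here in cultured mouse hematopoietic stem cells (HSCs). They were listed by name, for what their proteins are known to do, but with earlier results of these data known. They are the guardians Bcl2, Bcl2l1 and Mcl1, the effectors Bak1 and Bok, and the BH3-only genes Bid, Bad, Bcl2l11, Bmf and Bik. Family genes classed as p53 death targets were left out of the 10. Bax, Bbc3 and Pmaip1 are given below with the wider family. The table of 53465 genes held all 10, each under 1 identifier, and all 10 were among the 19830 genes that passed a filter on low counts.

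Guardian proteins hold back cell death by binding the BH3 segment of other family members. Effector proteins, once released or activated, open pores in the outer mitochondrial membrane, and cytochrome c then leaves the mitochondrion and starts the caspases. BH3-only proteins act upstream: they occupy the guardians or switch on the effectors, and blood stem cells are known to depend on guardians, MCL1 in particular, for survival.

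RNA came from long-term HSCs (LT-HSCs) and short-term HSCs (ST-HSCs) of mouse bone marrow, sorted by flow cytometry as lineage-negative, Kit-positive, Sca1-positive, CD150-positive and CD48-negative cells. LT-HSCs lacked CD34 and ST-HSCs carried it. Each population was cultured for 2 days in Stemline II medium with 100 ng/ml stem cell factor (SCF) and 2 ng/ml Flt3 ligand, either alone (control) or with 1 mM nicotinamide riboside (NR), a precursor of NAD, that was renewed after 24 h. This gave 4 groups of 3 libraries, each starting from 2.5 ng of RNA, amplified with SMART-seq v4 and tagmented with Nextera XT. All 4 groups thus received SCF, a survival factor for these cells, and no group of uncultured cells is analysed here. The sources used here do not give the strain, age or number of the mice, or whether samples of a group came from separate animals or cultures. The p-values therefore speak of variation among these libraries alone, part of which may be technical.

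The libraries held 24.6 M to 35.5 M reads assigned to genes. Reads that fell in no annotated gene made up 8.69% to 16.99% of reads in 10 libraries, but 28.5% in LT-HSC NR sample 3 and 26.2% in ST-HSC NR sample 3. Leaving out these 2 libraries added 2 calls among the 10 genes, Mcl1 for the averaged effect and Bmf between the populations in control culture, and both are given below. Kit transcripts were abundant in every library, at 1342 to 1714 CPM. This unit, used for levels below, is reads of a gene scaled to library size. Cd34 followed the sort, with a mean of 259 CPM in control LT-HSCs and 627 CPM in control ST-HSCs. The other sort genes differed too, although Sca1, CD150 and CD48 were sorted alike in both populations. Means in control LT-HSCs and control ST-HSCs were 37.6 and 6.23 CPM for Ly6a (Sca1). They were 39.0 and 18.9 CPM for Slamf1 (CD150), and 0.830 and 5.06 CPM for Cd48. Marker genes of other blood cells differed with NR. The summed level of 6 monocyte, macrophage and dendritic cell genes was 12.5 to 15.8 CPM in control LT-HSCs and 22.8 to 24.5 CPM with NR, and in ST-HSCs 12.9 to 15.2 CPM and 34.7 to 57.0 CPM. For 5 megakaryocyte genes it was 2413 to 2734 CPM in control LT-HSCs and 1566 to 2169 CPM with NR, and in ST-HSCs 2679 to 2943 CPM and 1636 to 2135 CPM. For 6 erythroid genes it was 143 to 150 CPM and 97.5 to 117 CPM in LT-HSCs, and 145 to 174 CPM and 89.5 to 108 CPM in ST-HSCs. For 6 lymphoid genes, of which Nkg7 made up most, it was 17.2 to 22.7 CPM and 7.75 to 8.83 CPM in LT-HSCs, and 75.0 to 79.7 CPM and 32.9 to 37.4 CPM in ST-HSCs. In these 4 lists NR and control did not overlap: the first was higher with NR and the others lower. The neutrophil list and the mast cell and basophil list overlapped between NR and control in both populations. None of these lists had a marker at 0 in every library of a group, and their part in the results below was not tested. In bulk RNA, fewer cells of a type and less RNA per cell cannot be told apart.

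With NR, the BCL2 family changed in both populations: the guardian Bcl2 and the effector Bok fell, and the BH3-only genes Bcl2l11 and Bmf rose. The BH3-only gene Bid also rose in ST-HSCs. The guardians Bcl2l1 and Mcl1 did not pass the test: the averaged log2 change was -0.05 for Bcl2l1 and 0.48 for Mcl1. For Mcl1 this depended on the setting: its averaged change passed in all 9 other settings with no single library left out. All tests are from edgeR's quasi-likelihood fit over all 12 libraries, with p adjusted by Benjamini-Hochberg over the 19830 genes, and a gene is called changed at an adjusted p under 0.05. By this rule 4 of the 10 genes changed in LT-HSCs, where 9.96% of all tested genes did: 2 rose, against 2.38% of all tested genes, and 2 fell, against 7.58%. In ST-HSCs 5 of the 10 changed, against 16.9% of all tested genes: 3 rose, against 5.82%, and 2 fell, against 11.1%. For the effect averaged over both populations 3 rose, against 7.88%, and 2 fell, against 16.1% (24.0% in either direction). The median log2 change of the 10 genes was 0.01 in LT-HSCs, where the median of all tested genes was 0.04, and 0.27 in ST-HSCs, where it was -0.03. The members thus moved in both directions.

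**Figure D1:**
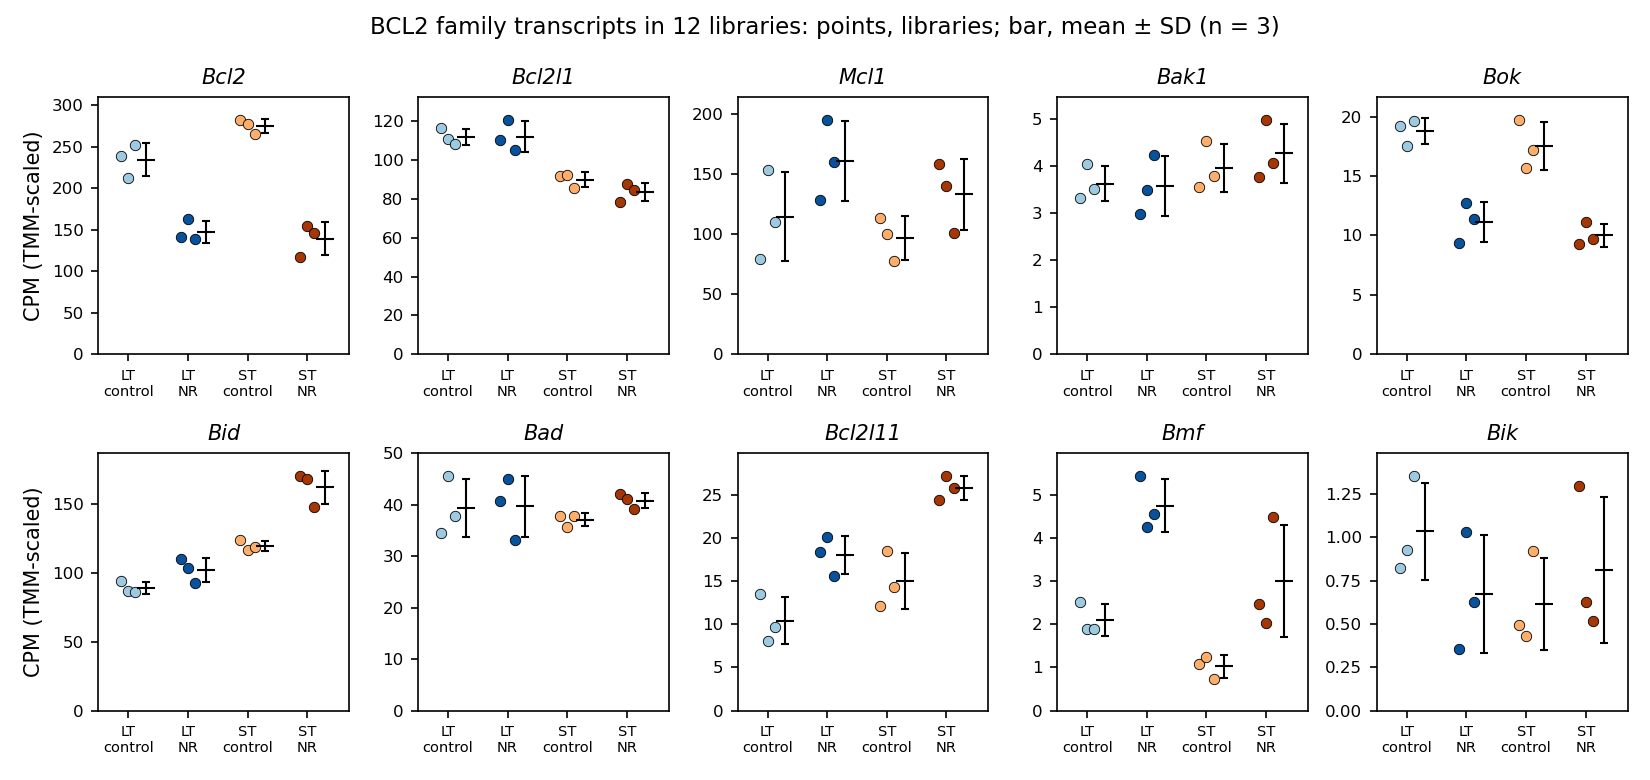
Level of each of the 10 BCL2 family genes in the 12 libraries, in CPM scaled by TMM factors on linear axes that start at 0. Points are libraries and the bars beside them give the mean and SD of 3. For Bcl2 and Bok the NR libraries lie below the control libraries of the same cell type, and for Bcl2l11 and Bmf they lie above.

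Bcl2, the founding guardian, was measured in control LT-HSCs at 239, 213 and 252 CPM and with NR at 142, 163 and 138 CPM. In ST-HSCs the control libraries had 282, 277 and 266 CPM and the NR libraries 117, 155 and 146 CPM. Every NR library was below every control library of either population. The log2 change was -0.67 ± 0.10 (SE) in LT-HSCs (edgeR adjusted p = 0.00148), a level 0.629 times that of control. In ST-HSCs it was -0.98 ± 0.10 (edgeR adjusted p = 4.35e-05), or 0.506 times control. Averaged over both populations it was -0.83 ± 0.07 (edgeR adjusted p = 5.27e-06).

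Bcl2l1 encodes BCL-XL, a guardian known for its role in erythroid cells and platelets. Its levels were 117, 111 and 108 CPM in control LT-HSCs and 110, 121 and 105 CPM with NR. In ST-HSCs they were 91.8, 92.3 and 85.6 CPM in control and 78.2, 87.6 and 84.7 CPM with NR. NR and control libraries overlapped in both populations. The 95% interval of the log2 change ran from -0.15 to 0.16 in LT-HSCs and from -0.26 to 0.05 in ST-HSCs.

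Mcl1 encodes a short-lived guardian. Its level scattered more than that of Bcl2 or Bcl2l1, with 79.5, 153 and 110 CPM in control LT-HSCs against 128, 195 and 160 CPM with NR. ST-HSCs had 113, 99.7 and 77.2 CPM in control and 158, 140 and 101 CPM with NR. The groups overlapped in both populations. The log2 change was 0.49 ± 0.23 in LT-HSCs (edgeR adjusted p = 0.245) and 0.46 ± 0.23 in ST-HSCs (edgeR adjusted p = 0.234). It passed in LT-HSCs with no low-count filter (adjusted p = 0.0368), and in ST-HSCs with no filter (adjusted p = 0.0263) and with a minimum mean of 5 CPM (adjusted p = 0.0497). The averaged change of 0.48 ± 0.16 lay close to the threshold (edgeR adjusted p = 0.0530), and without the 2 libraries rich in unassigned reads it was 0.61 and passed (edgeR adjusted p = 0.0174). With the sample number as a replicate block it was 0.48 and also passed (edgeR adjusted p = 0.0113). These were among 9 other settings with no single library left out, and the averaged change passed in all 9. Of the 12 fits that left out 1 library, it passed in 3.

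The 2 effectors in the list differed. Bok, an effector known to act without BAX and BAK, had 19.2, 17.5 and 19.6 CPM in control LT-HSCs and 9.37, 12.7 and 11.4 CPM with NR. In ST-HSCs it had 19.7, 15.7 and 17.2 CPM in control and 9.29, 11.1 and 9.66 CPM with NR. All 6 NR libraries lay below all 6 control libraries. The log2 change was -0.75 ± 0.13 in LT-HSCs (edgeR adjusted p = 0.00318) and -0.81 ± 0.13 in ST-HSCs (edgeR adjusted p = 0.00106). Bak1, which encodes the pore-forming protein BAK, was measured at 3.32 to 4.05 CPM in control LT-HSCs and 2.995 to 4.25 CPM with NR, and at 3.57 to 4.54 CPM and 3.77 to 4.99 CPM in ST-HSCs. Its groups overlapped, and from 99 to 159 reads per library the 95% interval of its log2 change ran from -0.44 to 0.40 in LT-HSCs and from -0.31 to 0.52 in ST-HSCs.

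Bcl2l11 encodes BIM, a BH3-only protein that binds all guardians and is known as a death signal after loss of cytokines. Control LT-HSCs had 13.5, 8.13 and 9.75 CPM and NR LT-HSCs 18.4, 20.1 and 15.7 CPM. Control ST-HSCs had 12.2, 18.5 and 14.3 CPM and NR ST-HSCs 24.5, 27.2 and 25.8 CPM. NR libraries were above the control libraries of the same population without overlap. The log2 change was nearly equal, at 0.79 ± 0.19 in LT-HSCs (edgeR adjusted p = 0.0167) and 0.78 ± 0.18 in ST-HSCs (edgeR adjusted p = 0.00938). The LT-HSC call held in 3 of the 6 fits that left out 1 LT-HSC library, with a log2 change of 0.635 to 1.016 over the 6. In the others the edgeR adjusted p was 0.0773 without control sample 2, 0.0645 without control sample 3 and 0.0576 without NR sample 2.

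Bmf encodes a BH3-only protein that is held at the cytoskeleton until released. It was rare, with 24 to 185 reads per library. Its levels were 2.53, 1.89 and 1.89 CPM in control LT-HSCs and 5.43, 4.25 and 4.54 CPM with NR. In ST-HSCs they were 1.08, 1.25 and 0.734 CPM in control and 2.48, 2.04 and 4.49 CPM with NR. Neither population showed overlap between NR and control. The log2 change was 1.17 ± 0.31 in LT-HSCs (edgeR adjusted p = 0.0285) and 1.55 ± 0.32 in ST-HSCs (edgeR adjusted p = 0.00468), the highest of the 10 genes in both. Leaving out any 1 of the 6 LT-HSC libraries took the LT-HSC call past the threshold, with adjusted p from 0.0509 to 0.112, while the ST-HSC call held in each such fit.

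Bid links the death receptors to mitochondria, since its protein is cut by caspase 8. It was measured at 94.4, 87.0 and 86.3 CPM in control LT-HSCs and at 110, 103 and 93.1 CPM with NR. In ST-HSCs it had 124, 117 and 119 CPM in control and 171, 168 and 148 CPM with NR. The LT-HSC groups overlapped by 1 library on each side and the ST-HSC groups did not overlap. The log2 change was 0.20 ± 0.08 in LT-HSCs (edgeR adjusted p = 0.148), where it passed the test in 4 of 10 other settings, and 0.44 ± 0.08 in ST-HSCs (edgeR adjusted p = 0.00174).

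The last 2 BH3-only genes did not pass the test. Bad, whose protein is kept inactive by survival kinases, had 34.6 to 45.6 CPM in control LT-HSCs and 33.2 to 45.1 CPM with NR, with a 95% interval of the log2 change from -0.24 to 0.27. In ST-HSCs its 3 NR libraries (39.3 to 42.1 CPM) lay just above its 3 control libraries (35.6 to 37.9 CPM), yet the log2 change was 0.14 with an interval from -0.12 to 0.39. Bik had 12 to 47 reads per library and 0.352 to 1.35 CPM, and the intervals of its log2 change were the widest of the 10 genes, at -1.85 to 0.60 in LT-HSCs and -0.82 to 1.63 in ST-HSCs. Counted by library, 4 of the 10 genes did not overlap between NR and control in LT-HSCs, against 24.5% of all tested genes, and 6 of 10 in ST-HSCs, against 32.8%.

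**Figure D2:**
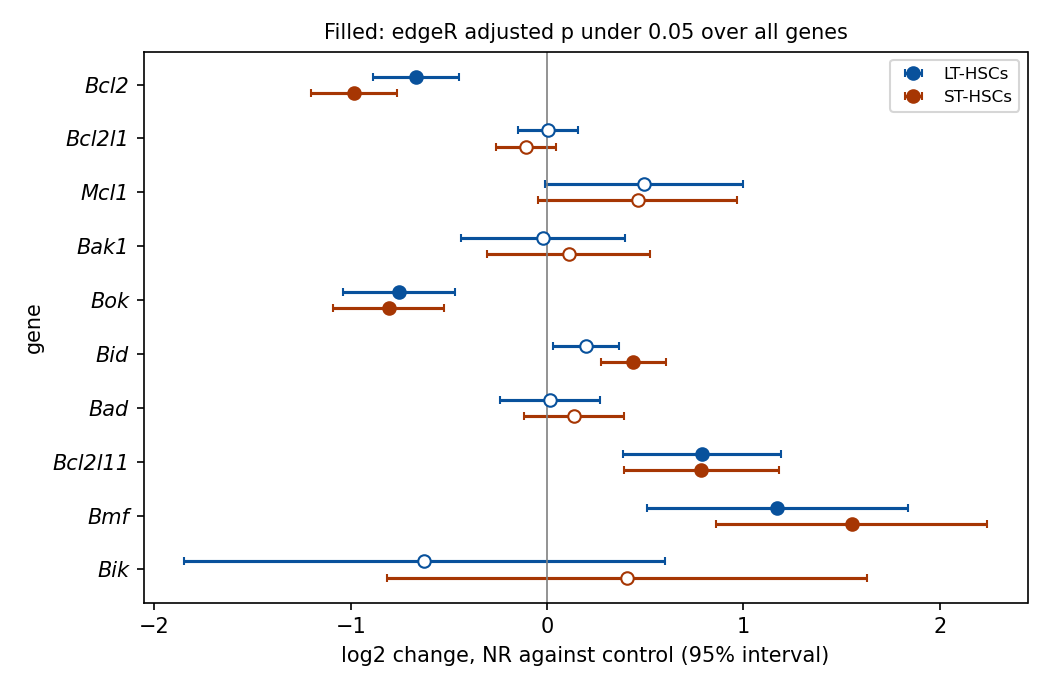
Log2 change of each of the 10 genes with NR against control in LT-HSCs and ST-HSCs, with 95% intervals from the edgeR fit. Filled points passed an adjusted p of 0.05 over all tested genes: Bcl2, Bok, Bcl2l11 and Bmf in both populations and Bid in ST-HSCs.

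The response was then compared between populations by the difference of the log2 changes, ST-HSCs minus LT-HSCs. None of the 10 genes passed the test of this difference with edgeR, and 2 of them had an unadjusted p under 0.05. DESeq2 and limma-voom also called 0 of the 10. Across all tested genes 0.0101% were called. The 2 genes were Bcl2, with a difference of -0.31 (95% interval -0.622 to -0.005), and Bid, with a difference of 0.24 (95% interval 0.004 to 0.478). For Bcl2l11 the difference was -0.003 with an interval from -0.55 to 0.54. An NR effect called for Bid in ST-HSCs and not in LT-HSCs is therefore not shown to differ between them.

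LT-HSCs and ST-HSCs themselves differed in Bcl2l1 and Bid, in opposite directions. In control culture Bcl2l1 was higher in LT-HSCs, by 0.32 ± 0.07 on the log2 scale (edgeR adjusted p = 0.0185), and Bid was lower, at -0.42 ± 0.08 (edgeR adjusted p = 0.00513). These were 2 of the 10 genes, against 5.01% of all tested genes (3.51% higher and 1.50% lower in LT-HSCs). The Bcl2l1 call was lost in 5 of the 6 fits that left out 1 control library (adjusted p 0.0504 to 0.101), all except that without LT-HSC sample 3. With NR the same 2 genes were called, in a comparison where 6.07% of all tested genes were (3.80% higher and 2.27% lower). Bcl2l1 was higher in LT-HSCs by 0.43 ± 0.07 (edgeR adjusted p = 0.00223) and Bid lower, at -0.67 ± 0.08 (edgeR adjusted p = 0.000158). For both genes the LT-HSC and ST-HSC libraries did not overlap in either culture.

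Other members separated by library without passing the test in the fit used throughout. In control culture Bcl2 (log2 difference -0.23, 95% interval -0.45 to -0.01) was lower in all 3 LT-HSC libraries than in the ST-HSC libraries, and Bmf (1.04, 0.35 to 1.73) was higher. Bmf passed without the 2 libraries rich in unassigned reads (1.08, edgeR adjusted p = 0.0389). Bcl2l11, whose libraries overlapped here, had a log2 difference of -0.52 (edgeR adjusted p = 0.171) and passed with limma-voom (adjusted p = 0.0476) and without LT-HSC control sample 1 (edgeR adjusted p = 0.0361). Such separation was found for 4 of the 10 genes, against 24.8% of all tested genes. With NR, Bcl2l11 was lower in all 3 LT-HSC libraries (-0.52, 95% interval -0.91 to -0.12, edgeR adjusted p = 0.136). It passed with no filter (adjusted p = 0.0240) and with only the groups compared in the fit (adjusted p = 0.0230). With NR, 3 of the 10 genes separated, against 17.6% of all tested genes. The median log2 difference of the 10 genes was 0.09 in control culture (all tested genes, -0.05) and 0.02 with NR (all tested genes, 0.02).

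Levels can be set side by side between genes only per length, so CPM was divided by the kilobases of annotated exon of each gene. This length merges all annotated exons, and which transcripts these cells use was not determined. The order of genes and the guardian shares below depend on it. On this scale Mcl1, Bcl2, Bid and Bcl2l1 were the most abundant members in control LT-HSCs, with means of 33.4, 25.6, 25.1 and 24.4 CPM per kb, and neighbours in this order overlapped between libraries. Bad (15.4) and Bok (10.2) followed without overlap, and Bak1 (1.51), Bcl2l11 (1.30), Bik (0.650) and Bmf (0.400) were the lowest. With NR the order changed. In NR LT-HSCs Mcl1 stood first at 47.1 CPM per kb, ranging from 37.5 to 57.0, above Bid at 28.8 without overlap, and Bcl2 took the fourth place at 16.1, overlapping Bad at 15.5. In control ST-HSCs Bid stood first at 33.7 CPM per kb, ranging from 32.85 to 34.93, above Bcl2 at 30.1 without overlap. Mcl1 at 28.3, ranging from 22.58 to 33.06, overlapped both Bcl2 and Bid. In NR ST-HSCs Bid at 45.8 overlapped Mcl1 at 38.9, and Bcl2 at 15.2 overlapped Bad at 16.0, below Bcl2l1 at 18.2.

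**Figure D3:**
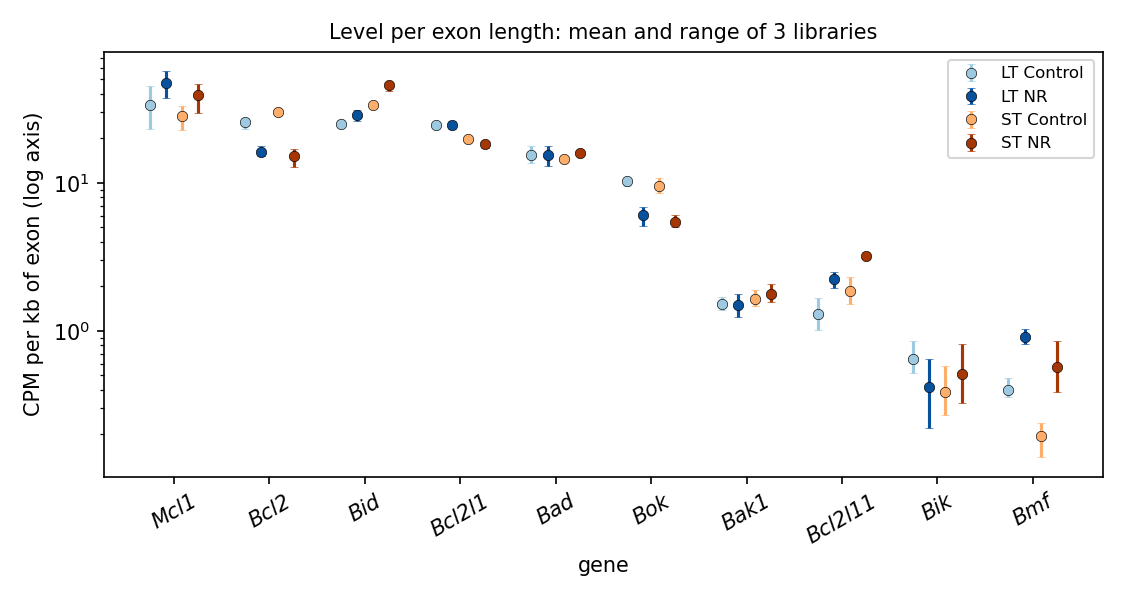
Level of the 10 genes in CPM per kilobase of exon on a log axis. Points are group means and bars the range of 3 libraries. Mcl1, Bcl2, Bid and Bcl2l1 lie highest and Bik and Bmf lowest.

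As a description with no test, the per-length levels of the 3 guardians were summed in each library. Bcl2 made up 25.2% to 34.9% of this sum in control LT-HSCs and 17.6% to 20.1% with NR, and in ST-HSCs 36.8% to 41.3% and 16.8% to 25.0%. Mcl1 made up 31.1% to 48.6% in control LT-HSCs and 48.6% to 56.4% with NR, and in ST-HSCs 32.1% to 39.4% and 46.1% to 60.8%. The sum itself overlapped between NR and control, at 74.8 to 92.3 and 77.0 to 101 CPM per kb in LT-HSCs and at 70.3 to 83.9 and 63.9 to 76.9 in ST-HSCs. The ratio of Bcl2 to Bcl2l11, in CPM, was 17.7 to 26.2 in control LT-HSCs and 7.68 to 8.83 with NR, and in ST-HSCs 14.9 to 23.2 and 4.78 to 5.69. These are transcript ratios and give no protein levels.

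**Figure D4:**
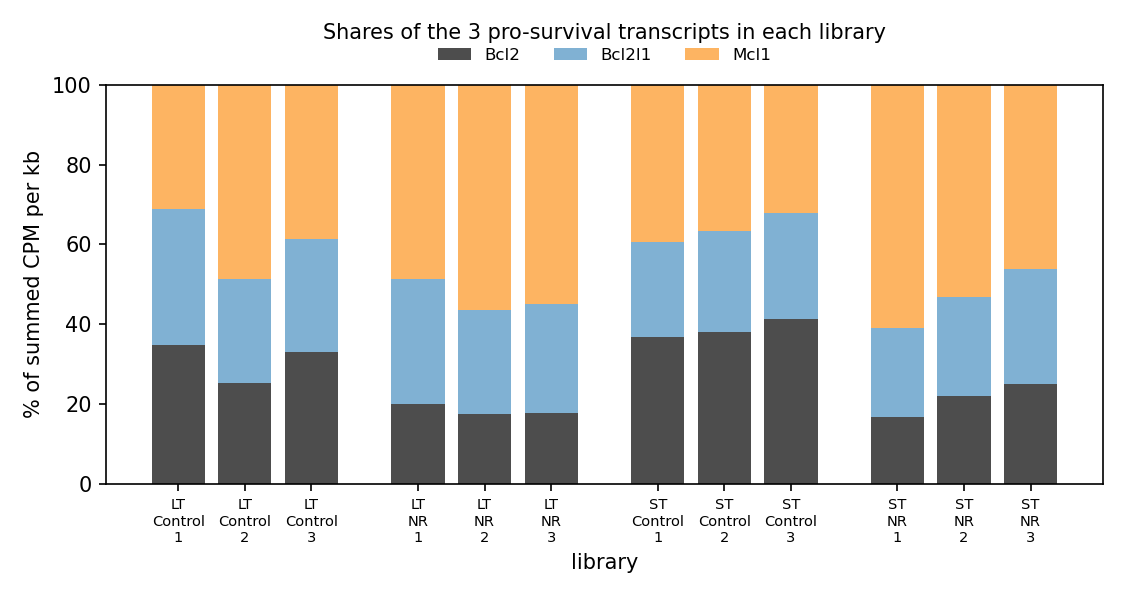
Share of Bcl2, Bcl2l1 and Mcl1 in their summed CPM per kilobase of exon, 1 bar per library. The Bcl2 share is 25.2% or more in every control library and 25.0% or less in every NR library.

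The promoters of the 5 genes that changed are shown because these genes moved together in groups, Bcl2 and Bok down and Bcl2l11, Bmf and Bid up. Each run is RefSeq sequence of GRCm38.p6 from the window before the most upstream start site in the table, written along the gene's strand. The runs of Bcl2, Bok and Bcl2l11 end at the RefSeq start site. For Bcl2 and Bok the bases just after this start were not found in a GENCODE M21 transcript of the gene, so these starts were not matched there. Bases that GENCODE M21 places in an exon of the gene were left out, so that the Bid run ends 29 bases before the start and the Bmf run 1 base before it. Capitals mark whole matches within the printed run to GTAAACA, a core recognised by FOXO factors, and to the GC box GGGCGG, each on either strand, so that CCGCCC is a GC box read from the other strand. A GC box of Bid that begins 33 bases before the start is cut by the end of its run and is not marked.

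Bcl2, chr1:106714291-106714540, minus strand: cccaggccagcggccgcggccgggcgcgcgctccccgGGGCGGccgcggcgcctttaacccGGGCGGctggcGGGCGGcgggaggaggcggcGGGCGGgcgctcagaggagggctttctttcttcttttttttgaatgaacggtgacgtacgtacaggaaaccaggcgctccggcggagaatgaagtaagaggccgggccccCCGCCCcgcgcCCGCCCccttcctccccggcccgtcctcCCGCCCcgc
Bok, chr1:93685325-93685574, plus strand: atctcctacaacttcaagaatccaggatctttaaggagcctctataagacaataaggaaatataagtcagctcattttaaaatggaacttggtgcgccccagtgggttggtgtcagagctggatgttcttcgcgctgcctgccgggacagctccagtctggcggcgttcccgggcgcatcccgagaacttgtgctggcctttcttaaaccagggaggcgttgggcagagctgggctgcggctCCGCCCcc
Bcl2l11, chr2:128125788-128126037, plus strand: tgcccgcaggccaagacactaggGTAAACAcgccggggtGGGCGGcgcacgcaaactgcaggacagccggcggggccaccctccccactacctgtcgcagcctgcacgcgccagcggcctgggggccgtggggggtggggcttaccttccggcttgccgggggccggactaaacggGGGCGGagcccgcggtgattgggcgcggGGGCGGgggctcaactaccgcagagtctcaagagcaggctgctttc
Bmf, chr2:118549688-118549936, minus strand: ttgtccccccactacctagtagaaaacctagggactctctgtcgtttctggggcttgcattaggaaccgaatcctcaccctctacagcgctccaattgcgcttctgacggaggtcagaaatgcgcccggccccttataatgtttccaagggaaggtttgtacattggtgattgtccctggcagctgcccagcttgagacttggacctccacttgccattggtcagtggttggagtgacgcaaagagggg
Bid, chr6:120916854-120917074, minus strand: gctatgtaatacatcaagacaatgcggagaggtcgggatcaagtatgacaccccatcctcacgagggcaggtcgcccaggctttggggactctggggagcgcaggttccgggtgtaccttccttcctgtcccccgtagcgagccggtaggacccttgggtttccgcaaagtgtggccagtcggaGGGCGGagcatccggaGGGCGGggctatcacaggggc

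The 250 bases before each start were searched for 5 motifs on both strands in 32851 windows of the table, of which 15 belonged to 9 of the 10 genes, all but Bik. GTAAACA was found in 3.17% of all windows and, among these genes, in the 1 window of Bcl2l11 shown above, 227 bases before the start. The GC box was found in 32.7% of all windows and in 7 of the 15, which belong to Bcl2, Mcl1, Bid, Bad, Bcl2l11 and Bok. The E-box CANNTG, which matches by chance more often than the others, was found in 66.2% of all windows and in 9 of the 15. The cyclic AMP response element TGACGTNA (2.52% of all windows) and the C/EBP-ATF element TGATGNAA (3.45%) had no match in the 15. A match describes letters and does not show that a factor binds there.

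The other genes of the pathway were taken as lists. Among 11 tested genes of the wider BCL2 family, 2 rose and 1 fell in LT-HSCs, where 9.96% of all tested genes changed, and 3 rose and 2 fell in ST-HSCs, where 16.9% did. For the averaged effect 3 rose, against 7.88% of all tested genes, and 3 fell, against 16.1%, with a median of 0.29 against 0.03 for all tested genes. Bbc3 encodes PUMA, a BH3-only target of p53. It rose from 18.5 ± 0.60 to 38.9 ± 6.04 CPM (SD, n = 3) in LT-HSCs and from 22.2 ± 2.84 to 65.6 ± 7.44 CPM in ST-HSCs, with an averaged log2 change of 1.32 ± 0.09 (edgeR adjusted p = 8.97e-07). Bax, the effector beside BAK, rose from 71.1 ± 8.57 to 97.5 ± 16.0 CPM in LT-HSCs and from 66.7 ± 2.08 to 138 ± 18.3 CPM in ST-HSCs. Its averaged log2 change was 0.75 ± 0.09 (edgeR adjusted p = 5.12e-05). Pmaip1, which encodes the BH3-only protein NOXA, also rose for the averaged effect (1.24 ± 0.29). It was rare, with group means of 1.19 to 5.44 CPM, and passed in neither population alone. Its edgeR adjusted p was 0.0830 in LT-HSCs and 0.0525 in ST-HSCs. Bcl2l13, an outer-membrane protein (averaged log2 change -0.33), Bcl2l12 (-0.41) and Bcl2l14 (-0.96 ± 0.27) fell. Bcl2a1a, Bcl2a1b, Bcl2a1d and Bcl2l10 did not pass the low-count filter.

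Death receptor genes, whose proteins signal to Bid through caspase 8, had 8 tested members, of which 3 rose in LT-HSCs, against 2.38% of all tested genes, and 4 in ST-HSCs, against 5.82%, and 0 fell in either. Fas, a receptor that recruits caspase 8, rose from 3.94 ± 0.16 to 7.38 ± 1.23 CPM in LT-HSCs and from 2.75 ± 0.10 to 8.59 ± 1.38 CPM in ST-HSCs, with an averaged log2 change of 1.28 ± 0.12 (edgeR adjusted p = 8.22e-06). Tnfrsf10b, the mouse TRAIL receptor (1.00 ± 0.16), Tnfrsf1a, the main TNF receptor (0.47 ± 0.06), and the adaptor kinase Ripk1 (0.30 ± 0.04) were the others called for the averaged effect.

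Downstream of the pore, 13 genes for the apoptosome, caspases and mitochondrial proteins were tested, and 2 rose and 8 fell for the averaged effect, against 7.88% and 16.1% of all tested genes (median -0.21, all tested genes 0.03). Cycs, which encodes the cytochrome c released through BAX and BAK pores, went from 63.6 ± 3.89 to 41.4 ± 4.24 CPM in LT-HSCs and from 68.9 ± 4.03 to 48.0 ± 5.08 CPM in ST-HSCs, an averaged log2 change of -0.57 ± 0.07 (edgeR adjusted p = 6.55e-05). Vdac2, a channel of the outer membrane that binds BAK (-0.33 ± 0.05), the mitochondrial nuclease gene Endog (-0.65 ± 0.11) and the mitochondrial protease gene Htra2 (-0.26 ± 0.05) also fell. The genes that rose were Apaf1, the scaffold of the apoptosome (0.23 ± 0.07), and the executioner caspase gene Casp6 (0.34 ± 0.07). Among 5 inhibitor of apoptosis genes, 0 rose and 1 fell for the averaged effect, Birc6 (-0.30 ± 0.07), which is near the 24.0% of all tested genes that changed. By population, 0 of the 5 changed in LT-HSCs, where 9.96% of all tested genes did. In ST-HSCs 1 rose, Birc3 (0.34 ± 0.10), against 5.82% of all tested genes. There 2 fell, Birc5 (-0.40 ± 0.12) and Birc6 (-0.39 ± 0.10), against 11.1%.

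Of 14 genes of survival cytokine receptors and their signalling, 2 rose and 1 fell for the averaged effect, also near the 24.0% of all tested genes. These were Csf2rb, the common beta chain of the IL-3 and GM-CSF receptors (0.88 ± 0.18), Jak2, the kinase of cytokine receptors (0.33 ± 0.09), and Akt2, a survival kinase (-0.18 ± 0.06). Of 13 genes for regulators of the family, 1 rose for the averaged effect, Foxo1 (0.58 ± 0.13), and 7 fell, against 7.88% and 16.1% of all tested genes (median -0.22). Trib3, a stress-induced pseudokinase, fell from 20.9 ± 1.40 to 11.9 ± 1.12 CPM in LT-HSCs and from 17.8 ± 0.72 to 6.28 ± 0.78 CPM in ST-HSCs (averaged log2 change -1.16 ± 0.08, edgeR adjusted p = 1.04e-06). Atf4, the transcription factor of the amino acid response (-0.48 ± 0.06), Huwe1, a ubiquitin ligase of MCL1 (-0.55 ± 0.07), and Ywhaz, a 14-3-3 protein that binds BAD (-0.28 ± 0.04), fell as well.

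**Figure D5:**
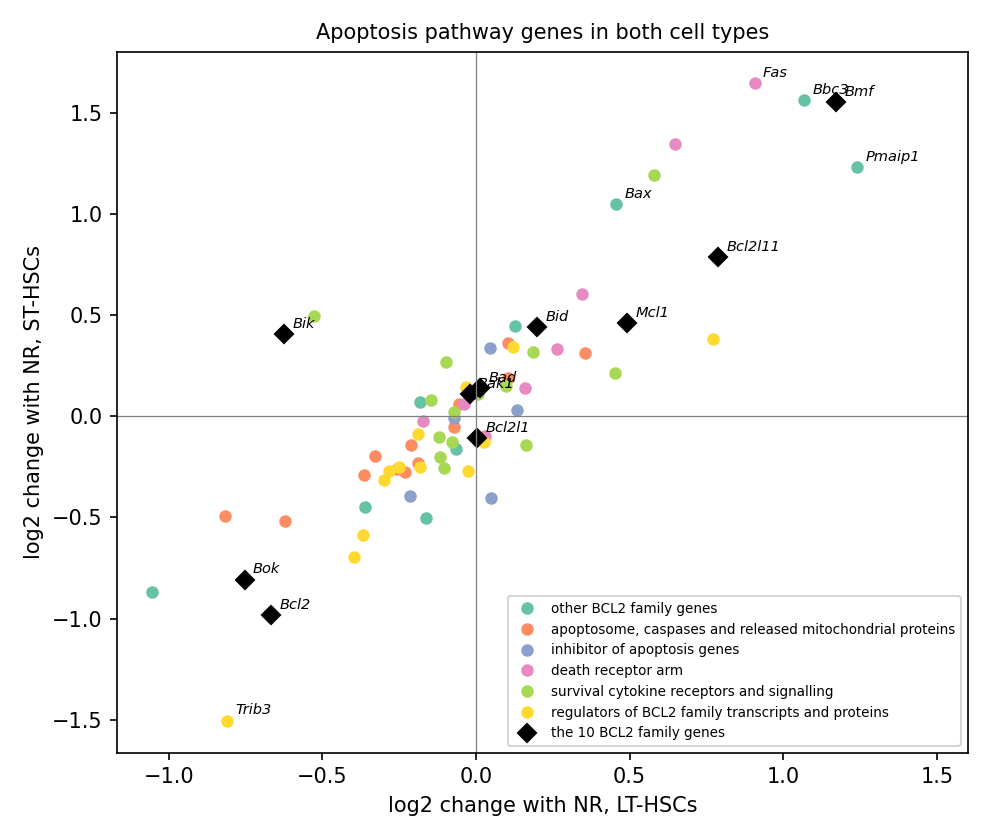
Log2 change with NR in LT-HSCs (horizontal) and ST-HSCs (vertical) of the 10 BCL2 family genes (diamonds) and of the tested genes of the 6 lists (circles), without Hrk and Bcl2l15. Bcl2, Bok and Trib3 lie in the lower left and Bmf, Bcl2l11, Bbc3 and Fas in the upper right, while Bik, which was not called, has opposite signs.

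For the 3 members with the smallest p for the averaged effect, the genes with the most similar pattern over the 12 libraries were listed by Pearson's r of log2 CPM, among 9967 or 9968 other named genes with a mean of at least 5 CPM. Bcl2 was followed most closely by Slc7a5, an amino acid transporter (r = 0.988), Pck2, the mitochondrial PEP carboxykinase (r = 0.988), and Nt5dc2 (r = 0.977). For Bok they were Itfg2 (r = 0.980), Pold2, a DNA polymerase delta subunit (r = 0.972), and Haus1, of the augmin complex (r = 0.970). For Bmf they were Ptprn (r = 0.950), Abr (r = 0.930) and Ephx1 (r = 0.929). The libraries share the split into NR and control, which alone gives high r between genes that changed, and no test was made.

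Some exons of 4 members lie opposite exons of another gene, and SMART-seq v4 libraries do not mark the strand, so that reads from these stretches cannot be told apart or may not have been counted. The shared stretch was 17.7% of the exon bases of Bid (with Bcl2l13), 20.5% of Bad (with Gpr137), 18.2% of Bak1 (with Ggnbp1) and 6.09% of Bcl2 (with D630008O14Rik). Another annotated Ggnbp1 entry shared 7.35% of the exon bases of Bak1, and how far these stretches coincide was not determined. For Bid, which rose, the partner Bcl2l13 fell.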

How the data were processed

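The authors deposited 1 table of raw read counts, with a row for each Ensembl gene and a column for each of the 12 libraries. Per the submitters' processing notes, FastQC 0.11.2, STAR 2.5.0b and HTSeq 0.6.1 were used. For the authors' counting, the genome build, annotation and strand setting are not given in the sources. Reads in no feature (8.69% to 28.5%) and ambiguous reads (3.30% to 4.38%) did not enter library sizes or tests.

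The counts were tested with edgeR 4.0.16 (R 4.3.3; TMM factors, quasi-likelihood fit, two-sided) on 4 group means, after a filter by group (minimum count 10, minimum total 15) that kept 19830 genes. CPM values use TMM-scaled library sizes, with SD over 3 libraries, and gene names and exon lengths come from GENCODE M21. Promoter windows are from RefSeq, and bases inside M21 exons of the gene were not printed. Depth was 24.6 M to 35.5 M counts per library, and replicates differed by a chi-square of 6.30 to 37.2 per degree of freedom, so no library was a duplicate. The edgeR step was tested on simulated data.

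The members and lists were chosen with earlier results of these data known, and no test over a list was made. All 10 members are named, with up to 4 called genes per list by smallest p for the averaged effect. Pmaip1, Bcl2l14, Apaf1, Casp6 and Foxo1 were named after their values were seen. Other settings were other scaling factors, DESeq2 1.42.0, limma-voom (limma 3.58.1), other filters, only the groups compared, a replicate block, the unassigned share as covariate, and leaving out libraries.

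Control and NR libraries with the same number deviated together across genes in LT-HSCs for numbers 1 and 3 (r = 0.51 and 0.713). For number 2 r was 0.25, below the 0.328 between its control library and an NR library of another number. The labels do not say that the numbers pair samples, and these correlations do not settle it. The main fit uses no pairing, and the numbers enter only as a replicate block in another setting. With the replicate block the same counts of members were called except for the averaged effect, where Mcl1 was added (0.48, adjusted p = 0.0113).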

Additional observations from a re-analysis of the deposited data

How the results depend on the processing

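The number of BCL2 family genes called with NR stayed at 4 or 5 in LT-HSCs and 5 or 6 both in ST-HSCs and averaged, under every setting that kept all groups at 3 or left out the 2 libraries rich in unassigned reads. Leaving out 1 library gave 2 to 3 calls in LT-HSCs (2 without control sample 2, control sample 3 or NR sample 2), 5 in ST-HSCs and 5 to 6 averaged. Between the populations in control culture it gave 1 to 2 (1 without LT-HSC sample 2 or without any 1 ST-HSC sample). Mcl1 passed for the averaged effect in all 9 other settings with no single library left out. Bmf in LT-HSCs also lost its call with no filter (adjusted p = 0.0670). Bak1, Bmf and Bik could not be tested with a minimum mean of 5 CPM.

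In ST-HSCs samples share only a number, since same-number libraries correlated at 0.669, -0.061 and 0.549; the replicate block gave 4 calls in LT-HSCs, 5 in ST-HSCs, 6 for the averaged effect, 0 for the difference of effects and 2 in each comparison of LT-HSCs with ST-HSCs, and changed no other call. Other scaling moved the split over all genes in LT-HSCs from 472 higher and 1503 lower to 712 and 1192 (relative log expression), in ST-HSCs from 1155 and 2193 to 1662 and 1552, and for the averaged effect from 1563 and 3189 to 2216 and 2351.

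Signs turned only for changes that were not called. With relative log expression factors the log2 change was 0.034 for Bak1 in LT-HSCs, 0.011 for Bcl2l1 averaged and 0.024 for the Bcl2l11 difference of effects. With upper-quartile factors these were 0.039, 0.005 and 0.016, with DESeq2 0.032, 0.011 and 0.023, and with no filter 0.032, 0.008 and 0.027. Bak1 had 0.035 with only the groups compared. With the minimum of 5 CPM Bcl2l1 had 0.031 and Bcl2l11 0.018. Without the 2 libraries Bcl2l1 had 0.009, and with the replicate block Bcl2l11 had 0.008. The difference of effects for Mcl1 was 0.054 with limma-voom and 0.186 without the 2 libraries, and that for Bok 0.113 and 0.044. Without the 2 libraries Bik averaged was 0.079, and Bad between populations with NR 0.017. The cause was not tested.

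Leaving out 1 library turned the sign within these ranges: in LT-HSCs Bak1 -0.161 to 0.094, Bad -0.07 to 0.134 and Bcl2l1 -0.02 to 0.046; in ST-HSCs Bik -0.099 to 0.819 and Bak1 -0.016 to 0.215; averaged Bik -0.362 to 0.097 and Bak1 -0.026 to 0.105. For the difference of effects the ranges were -0.302 to 0.19 for Mcl1, -0.232 to 0.176 for Bcl2l11 and -0.167 to 0.07 for Bok. For LT-HSCs against ST-HSCs they were -0.028 to 0.447 for Mcl1 and -0.037 to 0.167 for Bad in control, and -0.133 to 0.071 for Bad, -0.747 to 0.222 for Bik and -0.028 to 0.167 for Bcl2 with NR. Read counts of 12 to 47 for Bik and 24 to 185 for Bmf limit their precision. Genes of the other lists were tested with TMM factors and all libraries only.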
